A study of Sorghum bicolor with 24 samples.

Results

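Roots of sorghum (Sorghum bicolor) were treated with GR245DS, a synthetic analogue of strigolactones, or with mock, and sequenced after 6 h. The comparison uses 6 of the 24 libraries of the series, 3 labelled GR245DS 6 h and 3 labelled mock 6 h, chosen by their labels and column names, and all 24814 genes that passed a filter on low counts out of 35842 in the table. A further 6 libraries, GR245DS and mock at 3 h, entered the same fit and are given beside the 6 h values. The remaining 12 libraries belong to a phosphorus experiment and were not used here. The sorghum line, plant age, growth medium, GR245DS concentration and composition of the mock are not stated. Nothing says whether replicates are separate plants or pools, so p-values speak only to the spread among these libraries, which may be technical.

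Strigolactones are carotenoid-derived hormones that restrain shoot branching, shape roots and, when exuded, signal to symbiotic fungi and parasitic weeds. They are perceived by the hydrolase receptor D14, which with the F-box protein MAX2 targets repressors of the D53/SMXL family for degradation. The related receptor D14L (KAI2) works with MAX2 on SMAX1, another member of that repressor family. Plants handle foreign or excess small molecules in stages. Cytochromes P450 and reductases modify them, glutathione S-transferases and glycosyltransferases attach glutathione or sugar, and transporters move the products into the vacuole or out of the cell.

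Total counts of the 6 libraries ranged from 31677623 to 34477983. On the first principal component of the 12 libraries (38.9% of variance) the third replicates of all 4 groups stood apart, at 65.9 to 107, against -15.2 or lower in every other library. The treatments separated on the second component (18.3%). Between the third replicates and the others, over all 4 groups, genes of photosynthesis had a median difference of 1.16 in log2(CPM + 1) (44 genes). The medians were lowest for expansins (-0.80), sorgoleone synthesis (-0.76), peroxidases (-0.60), laccases and lignin synthesis (-0.59) and histones (-0.52), and were below 0 in 29 of 37 gene lists. What this difference is was not tested. Libraries with the same replicate number deviated together, so counts and calls with that number as a block are given where they differ by over 1.5 times or change. At 6 h, counts without the third replicates of all 4 groups are given for each list with a called gene. In CPM (counts scaled to library size by TMM), 10 tested genes that mark root cell types summed to 48.0, 57.4 and 37.2 CPM in GR245DS libraries, against 48.6, 55.3 and 39.5 CPM in mock libraries, and none was at 0 in all 6 libraries. Of these markers, 0 were called.

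**Figure D1:**
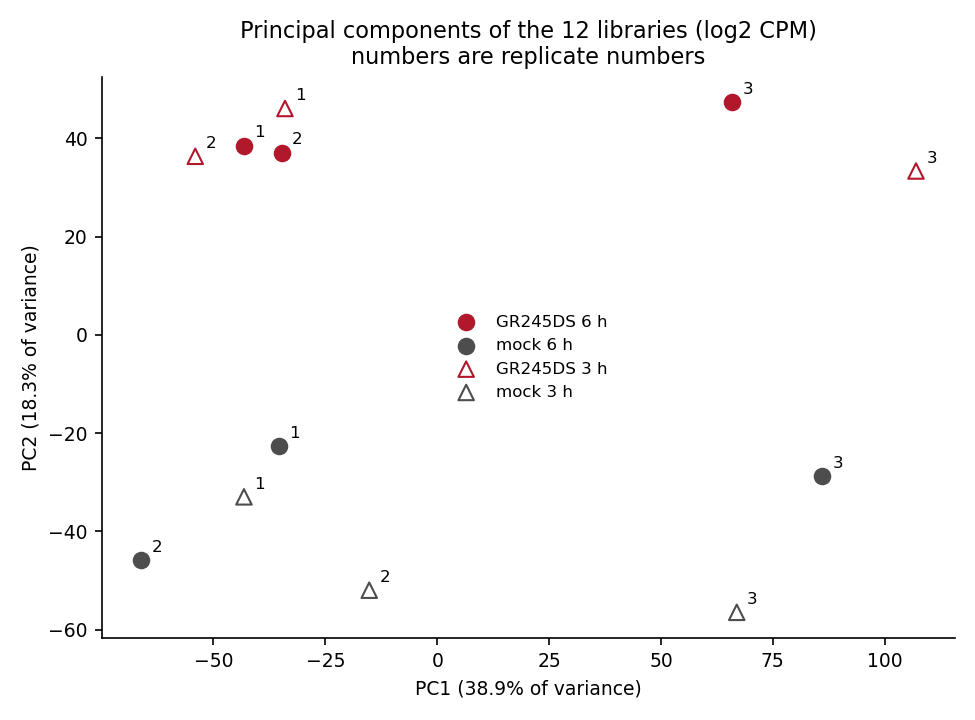
Principal components of log2 CPM for 12 libraries, with GR245DS in red and mock in grey, 6 h as filled circles and 3 h as open triangles, and replicate numbers beside the points. The third replicates lie at 65.9 or more on the horizontal axis and the treatments separate on the vertical axis.

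By edgeR's test without a block, nearly all called genes rose at 6 h. DESeq2, also without a block, called more genes in both directions, as given in the section on processing. Of 24814 genes, 119 were higher in GR245DS than in mock roots (0.480%) and 1 was lower (0.00403%), by edgeR's quasi-likelihood test at an adjusted p of 0.05. Changes among the 119 ranged from 0.67 to 8.11 in log2 fold change, with 107 at 2-fold or more, 65 at 4-fold or more and 16 at 16-fold or more. The median log2 fold change over all genes was -0.03. In all 119 genes each GR245DS library lay above each mock library, which held for 7.20% of all genes, and each GR245DS library lay below each mock library in 5.34%. With the replicate block the counts were 380 higher (1.53%) and 129 lower (0.520%), and the 380 included all 119. Without the third replicates they were 124 higher (0.497%) and 9 lower (0.0361%), with 90 of the 119 among the 124. Leaving out a single library gave 52 to 90 calls in either direction, against 120 with all, and moved the count by over 1.5 times for each library except mock replicate 1: 75, 65 and 75 without GR245DS replicates 1, 2 and 3, and 52 and 59 without mock replicates 2 and 3. In the authors' deposited table, at its FDR of 0.01 and 2-fold rule, 190 of 21233 genes were higher (0.895%) and 18 lower (0.0848%), and 105 of the 119 were among those 190. In bulk tissue, fewer cells of a type and less RNA per cell cannot be told apart.

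**Figure D2:**
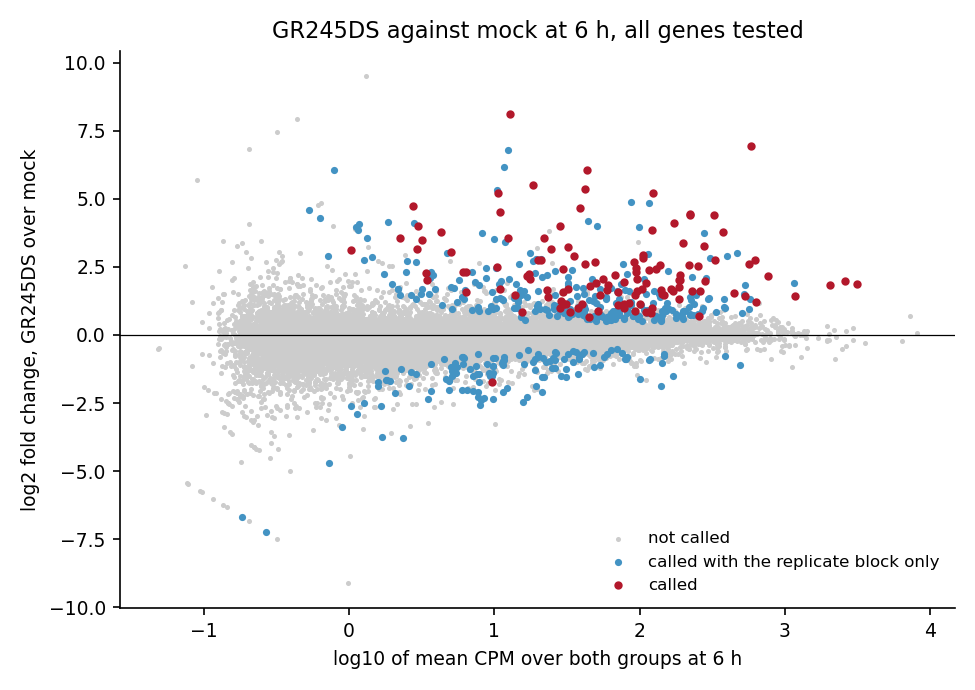
Log2 fold change of GR245DS over mock at 6 h against the log10 of the mean CPM of both groups, for 24814 genes. Red points are the 120 genes called, nearly all above 0, and blue points are those called only with the replicate number as a block, which lie on both sides of 0.

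Of 10 tested repressor genes of strigolactone and karrikin signalling, 3 rose. Of all 15 tested genes for receptors, F-box and repressors, these 3 were higher and 0 lower (20% against 0.480% of all genes), with a median log2 fold change of 0.64 over the list. With the replicate block 5 were higher, and without the third replicates 4 were. The first D53 gene (Sobic.005G002400) stood at 149, 141 and 179 CPM in GR245DS libraries, against 39.5, 44.7 and 26.98 CPM in mock libraries. The second (Sobic.008G002400) stood at 137, 146 and 192 CPM in GR245DS libraries, against 54.8, 53.3 and 38.6 CPM in mock libraries. SMAX1 (Sobic.004G325000) stood at 88.5, 89.0 and 92.4 CPM in GR245DS libraries, against 32.6, 29.6 and 23.6 CPM in mock libraries. The groups did not overlap for any of these genes, and SMAX1 was almost the same in the 3 treated libraries. The third replicate had the highest value of the treated group and the lowest of the mock group in all 3 genes.

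The first D53 gene was 4.21-fold higher (log2 fold change 2.08 ± 0.32 SE, edgeR adjusted p = 0.0164), and the second 3.25-fold (1.70 ± 0.25, edgeR adjusted p = 0.0115). SMAX1 was 3.15-fold higher (log2 fold change 1.65 ± 0.22 SE, edgeR adjusted p = 0.00834). By the authors' FPKM, which correct for gene length, the means in GR245DS and mock roots were 42.8 and 10.8 for the first D53 gene, 26.8 and 8.77 for the second and 22.3 and 7.54 for SMAX1. The call of the first D53 gene ended without GR245DS replicate 1 or 3 or without any 1 mock library (edgeR adjusted p 0.0518 to 0.0789), and that of the second without mock replicate 2 or 3 (0.0585 and 0.0628). Both kept it without the third replicates, at edgeR adjusted p of 0.00269 and 0.00343. SMAX1 kept its call without each library.

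Of all 10 repressor genes tested, 8 had a positive log2 fold change, where the median over all genes was -0.03. In 5 of the 10 each GR245DS library lay above each mock library, against 7.20% of all genes. The SMAX1-like gene Sobic.007G090900 had 278, 304 and 345 CPM in GR245DS libraries, against 168, 169 and 220 CPM in mock libraries. Its log2 fold change of 0.74 ± 0.15 SE missed the threshold (edgeR adjusted p = 0.0636), but passed with the block (0.00720) and without the third replicates (0.0359). The SMAX1-LIKE 3 gene Sobic.005G043000 overlapped between groups, at 18.2, 20.7 and 36.9 CPM in GR245DS libraries against 12.6, 9.21 and 26.03 CPM in mock libraries.

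By edgeR without a block, none of the 5 receptor and F-box genes passed. Those given here, like the uncalled repressors above and the CCD8 gene below, fell outside the naming rule and were chosen for their roles with their values known. MAX2 (Sobic.010G043000) averaged 106 ± 27.9 CPM in GR245DS roots and 128 ± 54.9 CPM in mock roots (SD, n = 3 each), with a 95% interval of the log2 fold change of -1.21 to 0.67. D14L (Sobic.001G330000) averaged 43.2 ± 2.56 CPM in GR245DS roots and 48.5 ± 4.97 CPM in mock roots (interval -0.45 to 0.12). The D14 gene with the highest authors' FPKM (Sobic.001G465100) averaged 328 ± 113 CPM in GR245DS roots and 444 ± 212 CPM in mock roots (interval -1.44 to 0.56). A weakly expressed D14 gene (Sobic.009G254700) had 4.62, 4.93 and 2.70 CPM in GR245DS libraries, against 0.902, 0.988 and 0.580 CPM in mock libraries, without overlap. Its log2 fold change of 2.31 ± 0.79 SE missed the threshold (edgeR adjusted p = 0.543) and passed with the block (0.0386).

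**Figure D3:**
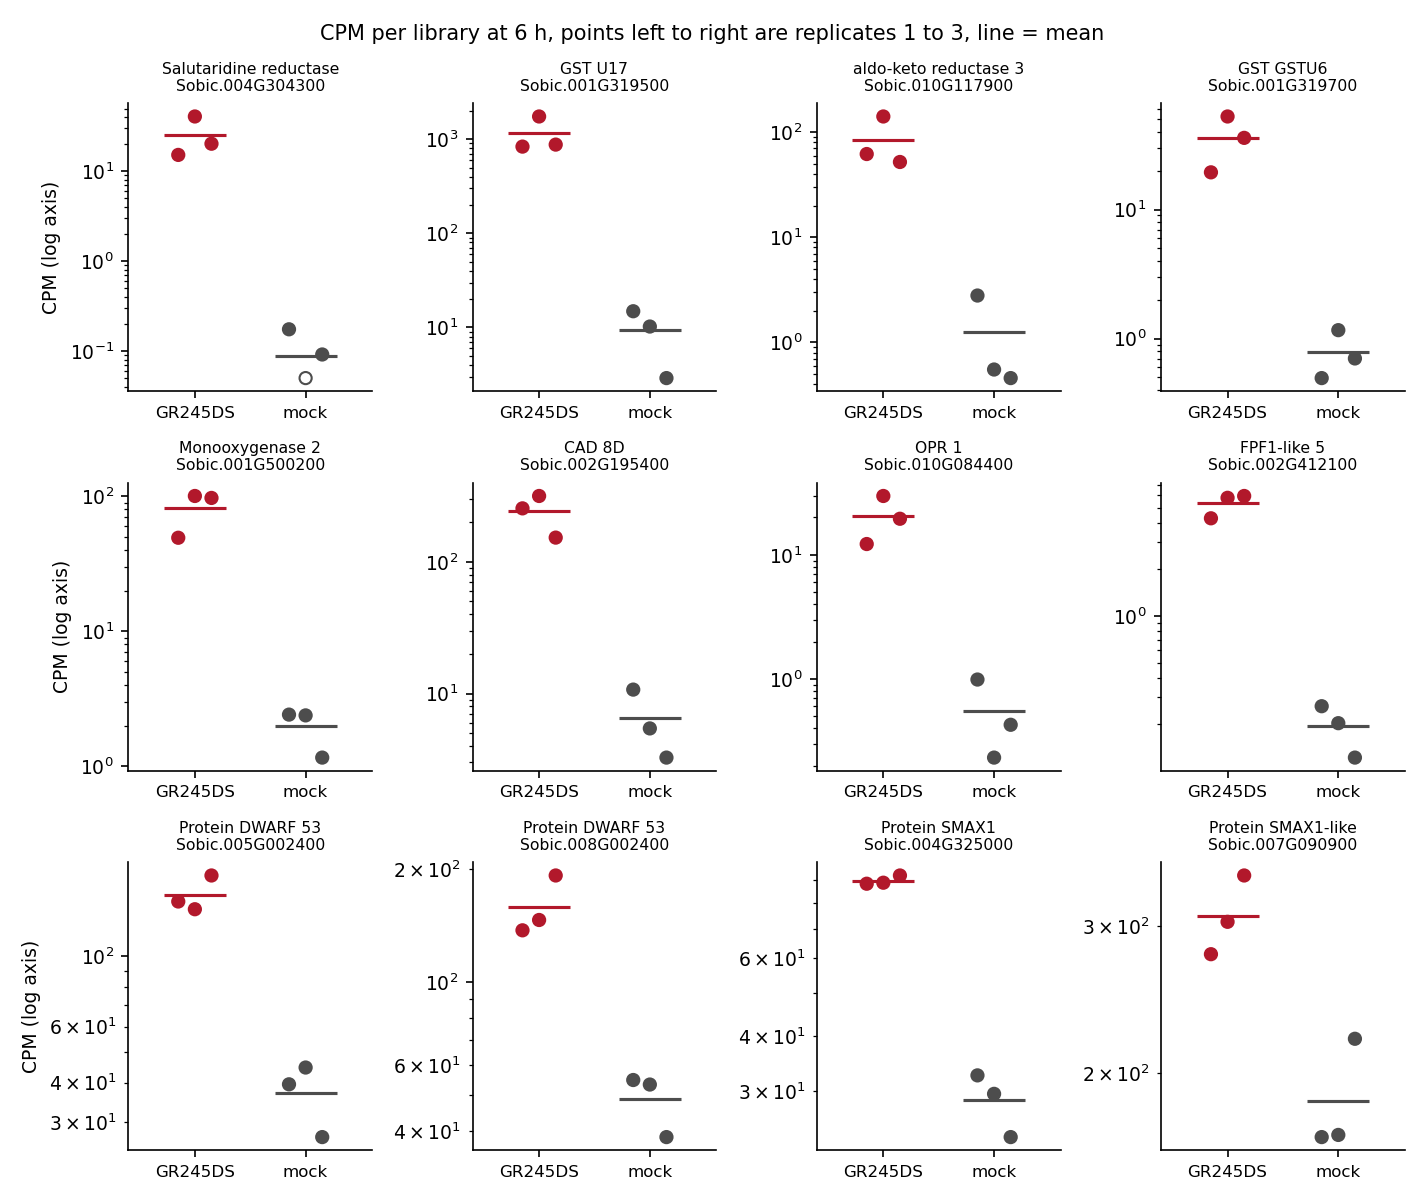
CPM per library at 6 h on log axes for the 8 described genes with the largest rises (upper rows) and 4 repressor genes (bottom row), GR245DS left and mock right, lines at the means. The hollow point marks a mock library with 0 reads, drawn at an arbitrary low position, and in every panel all 3 GR245DS points lie above all 3 mock points.

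Synthesis of strigolactones starts with the carotenoid isomerase D27 and the cleavage enzymes CCD7 and CCD8, and continues with carlactone oxidases of the CYP711A family. Of 11 tested genes 0 were higher and 0 lower, with a median log2 fold change of -0.29, and 7 of them averaged under 2 CPM in both groups. The CYP711A1 gene Sobic.003G269600 had 22.0, 23.9 and 16.2 CPM in GR245DS libraries, against 9.11, 9.65 and 6.93 CPM in mock libraries. These groups did not overlap, yet the log2 fold change of 1.27 ± 0.37 SE missed the threshold (edgeR adjusted p = 0.372, 0.0450 with the block, 0.0614 without the third replicates). With the block in a fit of only the 6 libraries, this gene passed more clearly (edgeR adjusted p = 0.00821). It also met the authors' rule (DESeq2 log2 fold change 1.06, FDR 0.000121). A second CYP711A1 gene, Sobic.010G170400, averaged 3.78 ± 0.53 CPM in GR245DS roots and 4.62 ± 0.93 CPM in mock roots. The D27 gene Sobic.007G016600 averaged 0.852 ± 0.53 CPM in GR245DS roots and 1.21 ± 0.62 CPM in mock roots. The CCD8 gene with most reads (Sobic.007G170300) averaged 8.87 ± 2.44 CPM in GR245DS roots and 11.0 ± 8.67 CPM in mock roots, where mock replicate 2 alone reached 21.0 CPM. All 3 missed the threshold.

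The pathways that feed synthesis and carry strigolactones were mostly uncalled by edgeR without a block. Among 24 genes of the MEP and carotenoid pathways, 1 was higher (4.17%; median log2 fold change 0.11), also without the third replicates. It was DXS2 (Sobic.002G064500), for the entry enzyme of the plastid isoprenoid pathway, at 28.3, 29.9 and 26.9 CPM in GR245DS libraries against 4.86, 8.69 and 6.87 CPM in mock libraries. This rise of 4.17-fold (log2 fold change 2.06 ± 0.25 SE, edgeR adjusted p = 0.00354) kept its call without each library. Phytoene synthase 3 (Sobic.002G292600), for the first committed carotenoid step, averaged 109 ± 3.68 CPM in GR245DS roots and 72.7 ± 9.90 CPM in mock roots and missed the threshold (edgeR adjusted p = 0.270). Of 43 ABCG transporters, the family of known strigolactone exporters, 0 were called (median -0.07), against 6 higher with the block and 1 without the third replicates. ABCG36 (Sobic.003G216000) had 16.2, 9.95 and 8.72 CPM in GR245DS libraries, against 4.54, 1.92 and 0.549 CPM in mock libraries, where each number was higher in its treated library (log2 fold change 2.31 ± 0.74 SE, edgeR adjusted p = 0.472, 0.00289 with the block, but 0.0612 with the block in a fit of only the 6 libraries). ABCG53 (Sobic.002G174000) averaged 121 ± 24.02 CPM in GR245DS roots and 52.0 ± 5.95 CPM in mock roots (edgeR adjusted p = 0.0845, 0.0251 with the block, 0.0339 without the third replicates). It passed by DESeq2 (DESeq2 adjusted p = 0.00286) and met the authors' rule (DESeq2 log2 fold change 1.07, FDR 1.65e-06).

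Genes on 5 lists of detoxification, 30 for enzymes and 5 for transporters, made up 35 of the 119 genes that rose, or 29.4% of them. The 5 lists of glutathione S-transferases, UDP-glycosyltransferases, cytochromes P450, reductases and ABCB, ABCC or DETOXIFICATION transporters hold 487 tested genes. Of these 7.19% were higher and 0 lower, against 0.480% of all genes higher. The median log2 fold change over the 487 was 0.18, against -0.03 over all genes. With the block, 75 were higher and 3 lower. These names rest on similarity to known proteins, and their substrates in sorghum were not measured. Several of the genes have neighbouring identifiers and similar names, and how reads shared between such copies were counted is not stated, so the split between copies is uncertain.

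Glutathione S-transferases, which attach glutathione to reactive molecules, held the most called members, 11 of 88 (12.5%; median 0.43), against 24 with the block and 10 without the third replicates. Their summed level was 16180, 17490 and 11920 CPM in GR245DS libraries, against 7200, 5447 and 3855 CPM in mock libraries. The groups were far apart, and the third replicate was lowest in each. GSTU17 (Sobic.001G319500) had 834, 1742 and 876 CPM in GR245DS libraries, against 14.9, 10.2 and 2.90 CPM in mock libraries. The lowest treated library was thus far above the highest mock library. It was 123-fold higher (log2 fold change 6.94 ± 0.80 SE, edgeR adjusted p = 0.00354) and kept its call without each library. By the authors' FPKM its mean was 1104 in GR245DS roots and 9.54 in mock roots.

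A GSTU6 gene with a nearby identifier (Sobic.001G319700) had 19.4, 52.6 and 35.9 CPM in GR245DS libraries, against 0.495, 1.16 and 0.702 CPM in mock libraries. It was 45.8-fold higher (log2 fold change 5.51 ± 0.65 SE, edgeR adjusted p = 0.00354, 0.0582 without the third replicates). Smaller rises belonged to the 2 members with the smallest adjusted p. The gene Sobic.003G426400 had 292, 334 and 265 CPM in GR245DS libraries, against 71.98, 78.04 and 69.9 CPM in mock libraries, a 4.05-fold rise (edgeR adjusted p = 0.00119). Sobic.008G074400 had 372, 417 and 385 CPM in GR245DS libraries, against 128, 128 and 125 CPM in mock libraries, a 3.09-fold rise (edgeR adjusted p = 0.00162). The highest mean among all 119 was that of GST1 (Sobic.003G305700), with an authors' FPKM of 3702 in GR245DS roots and 1074 in mock roots. GST1 was outside the naming rule and chosen after its values were seen.

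UDP-glycosyltransferases, which attach sugars to hormones and foreign compounds, had 10 of 95 members higher (10.5%; median 0.17), by 3.01-fold to 25.4-fold, and 9 without the third replicates. The UGT83A1 gene Sobic.001G044400 had 7.56, 9.26 and 10.2 CPM in GR245DS libraries, against 1.14, 0.814 and 1.28 CPM in mock libraries. It was 8.36-fold higher (log2 fold change 3.06 ± 0.29 SE, edgeR adjusted p = 0.00119). A second UGT83A1 gene (Sobic.001G084400) had 139, 169 and 163 CPM in GR245DS libraries, against 39.9, 26.3 and 28.1 CPM in mock libraries, a 4.99-fold rise (edgeR adjusted p = 0.00119). Neither pair of groups overlapped, and both genes kept their calls without each library. The largest fold in the family was that of UGT75C1 (Sobic.003G042900), chosen after its values were seen, with 74.3 ± 18.7 CPM in GR245DS roots and 2.93 ± 1.23 CPM in mock roots (SD, n = 3 each).

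Cytochromes P450, which oxidise many substrates, had 4 of 163 members higher (2.45%; median 0.16), against 18 higher and 2 lower with the block and 6 higher without the third replicates. The 2 genes with the smallest adjusted p are both described as P450 709B2. Sobic.002G388900 had 51.8, 50.3 and 71.4 CPM in GR245DS libraries, against 7.51, 6.51 and 4.58 CPM in mock libraries, a 9.33-fold rise (log2 fold change 3.22 ± 0.33 SE, edgeR adjusted p = 0.00214). Sobic.010G070000 had 107, 148 and 115 CPM in GR245DS libraries, against 28.3, 38.2 and 30.03 CPM in mock libraries, a 3.82-fold rise (edgeR adjusted p = 0.00354). Both stayed called without each library.

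Reductases, which transfer hydride from NADPH to aldehydes, ketones and quinones, had 5 of 57 members higher (8.77%; median 0.08), against 13 with the block and 2 without the third replicates. The largest change of all 119 was that of a gene described as salutaridine reductase (Sobic.004G304300), named for an alkaloid enzyme of opium poppy. It had 461, 1356 and 691 reads in GR245DS libraries, against 6, 0 and 3 reads in mock libraries. That is 15.2, 40.8 and 20.3 CPM in GR245DS libraries, against 0.175, 0 and 0.0916 CPM in mock libraries, so the size of its log2 fold change (8.11 ± 1.32 SE, 95% interval 5.21 to 11.01, edgeR adjusted p = 0.0226) rests on few mock reads. It was 9.03 without mock replicate 1 and 7.53 without mock replicate 2. The call ended without GR245DS replicate 2 or 3 or any 1 mock library (edgeR adjusted p 0.0520 to 0.118), and without the third replicates (0.179).

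Aldo-keto reductase 3 (Sobic.010G117900) had 62.0, 141 and 52.1 CPM in GR245DS libraries, against 2.79, 0.552 and 0.458 CPM in mock libraries (67.1-fold; log2 fold change 6.06 ± 1.05 SE, edgeR adjusted p = 0.0322). Without mock replicate 1 the log2 fold change was 7.37, and the call ended without any other library (edgeR adjusted p 0.0622 to 0.176) and without the third replicates (0.153). The aldo-keto reductase AKR4C10 (Sobic.003G355500) varied less, at 337, 339 and 441 CPM in GR245DS libraries against 59.1, 64.0 and 65.3 CPM in mock libraries. It was 5.93-fold higher (log2 fold change 2.57 ± 0.18 SE, edgeR adjusted p = 0.000449). Aldo-keto reductase 2 (Sobic.010G019900) was 13.8-fold higher, at 700 ± 155 CPM in GR245DS roots and 50.6 ± 20.5 CPM in mock roots (edgeR adjusted p = 0.0115, but 0.0585 and 0.0562 without mock replicate 2 or 3).

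Transporters of the ABCB, ABCC and DETOXIFICATION (MATE) families, of which ABCC members load conjugates into vacuoles, had 5 of 84 members higher (5.95%; median 0.17), against 8 higher and 1 lower with the block and 5 higher without the third replicates. DETOXIFICATION 40 (Sobic.001G185500) had 1227, 1238 and 1303 CPM in GR245DS libraries, against 268, 311 and 264 CPM in mock libraries. The treated libraries were closely alike, and the rise was 4.47-fold (log2 fold change 2.16 ± 0.18 SE, edgeR adjusted p = 0.000941). The other called members were DETOXIFICATION 27, a second DETOXIFICATION 40 gene, ABCC8 and ABCC2, by 2.72-fold to 6.84-fold.

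**Figure D4:**
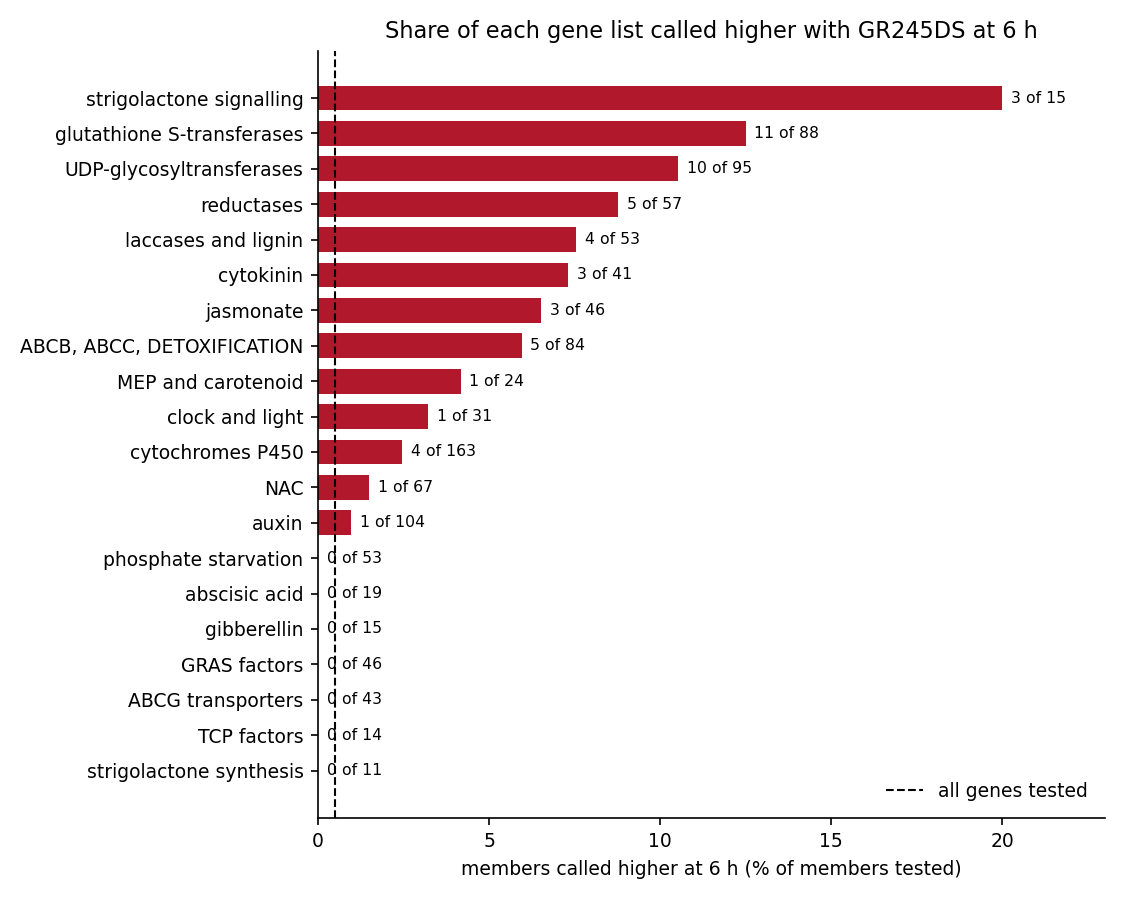
Percentage of tested members called higher at 6 h in each list that bears on the treatment or held a called gene, with counts beside the bars and a dashed line at 0.480%, the share over all genes. Strigolactone signalling, glutathione S-transferases and UDP-glycosyltransferases have the longest bars, and 7 lists have 0 members called higher.

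The other genes named for large changes are outside these 5 lists. Monooxygenase 2 (Sobic.001G500200) had 49.4, 101 and 97.4 CPM in GR245DS libraries, against 2.42, 2.38 and 1.16 CPM in mock libraries. It was 41.5-fold higher (log2 fold change 5.37 ± 0.65 SE, edgeR adjusted p = 0.00393) and kept its call without each library. Cinnamyl alcohol dehydrogenases reduce the aldehydes that become lignin units, and 4 genes of the family were the only called members of the 53 on the laccase and lignin list (7.55%; median 0.11), with 3 called without the third replicates. CAD 8D (Sobic.002G195400) had 254, 316 and 153 CPM in GR245DS libraries, against 10.7, 5.44 and 3.27 CPM in mock libraries (37.2-fold; log2 fold change 5.22 ± 0.85 SE, edgeR adjusted p = 0.0226). Its call ended without GR245DS replicate 1 or 2 or mock replicate 2 or 3 (edgeR adjusted p 0.0599 to 0.139), and held without the third replicates (0.00531). CAD1 (Sobic.010G071800) had 549, 696 and 618 CPM in GR245DS libraries, against 45.3, 16.3 and 26.2 CPM in mock libraries (21.2-fold; edgeR adjusted p = 0.000941). The FPF1-like gene 5 (Sobic.002G412100), of a family named for earlier flowering in mustard, had 4.26, 5.77 and 5.93 CPM in GR245DS libraries, against 0.262, 0.204 and 0.122 CPM in mock libraries. It was 27.2-fold higher (edgeR adjusted p = 0.00986, but 0.0655 and 0.0628 without mock replicate 2 or 3).

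The jasmonate list had 3 of 46 members higher (6.52%; median 0.03), against 6 higher and 1 lower with the block and 1 higher without the third replicates. All 3 are described as 12-oxophytodienoate reductases (OPR), a family in which some members make jasmonate and others reduce different enones. OPR1 (Sobic.010G084400) had 12.2, 29.8 and 19.5 CPM in GR245DS libraries, against 0.989, 0.233 and 0.427 CPM in mock libraries (37.3-fold; log2 fold change 5.21 ± 0.74 SE, edgeR adjusted p = 0.0107). The log2 fold change was 5.94 without mock replicate 1, and the call ended without mock replicate 2 or 3 (edgeR adjusted p 0.0616 and 0.0691) or without the third replicates (0.127). OPR5 (Sobic.009G003600) had 9.28, 8.81 and 13.8 CPM in GR245DS libraries, against 2.65, 1.92 and 1.80 CPM in mock libraries (5.001-fold; edgeR adjusted p = 0.0120, but 0.0758 and 0.0740 without mock replicate 2 or 3). Without a block, no allene oxide, lipoxygenase or TIFY gene, which act before and after OPR in jasmonate synthesis and signalling, was called. The member lower with the block was Sobic.003G385500, outside these 3 (log2 fold change -0.895 without the block).

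Cytokinin genes had 3 of 41 members higher (7.32%; median 0.07), and also 3 without the third replicates. LOGL5 (Sobic.001G004500), for an enzyme that releases active cytokinin from its nucleotide, had 5.81, 5.29 and 4.73 CPM in GR245DS libraries, against 0.669, 0.552 and 0.519 CPM in mock libraries. It was 9.10-fold higher (log2 fold change 3.18 ± 0.49 SE, edgeR adjusted p = 0.0153). This call ended without GR245DS replicate 1 or any 1 mock library (edgeR adjusted p 0.0568 to 0.0933). The cis-zeatin O-glucosyltransferase gene (Sobic.006G048000), for an enzyme that stores cytokinin as a glucoside, had 41.3, 49.98 and 40.6 CPM in GR245DS libraries, against 5.27, 6.89 and 2.66 CPM in mock libraries. It was 8.90-fold higher (edgeR adjusted p = 0.00354) and kept its call without each library. The third, outside the naming rule, was LOGL10 (Sobic.001G217700), at 250 ± 91.6 CPM in GR245DS roots and 77.6 ± 18.4 CPM in mock roots (edgeR adjusted p = 0.0359).

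Among 104 auxin genes 1 was higher (0.962%; median -0.23), near the share over all genes, with 1 also without the third replicates. IAA25 (Sobic.007G009300), for a repressor of auxin response, had 9.68, 9.20 and 9.93 CPM in GR245DS libraries, against 3.38, 2.01 and 4.24 CPM in mock libraries (2.99-fold; edgeR adjusted p = 0.0229). Its call ended without any 1 library except mock replicate 3 (edgeR adjusted p 0.0585 to 0.117). IAA9 (Sobic.004G336500) averaged 9.07 ± 0.70 CPM in GR245DS roots and 15.8 ± 1.02 CPM in mock roots, without overlap, and missed the threshold (edgeR adjusted p = 0.294, 0.0495 with the block in a fit of only the 6 libraries). In the clock and light list 3 of 31 genes were higher with the block and 1 without the third replicates. Without a block 1 was higher (3.23%, against 0.480% of all genes). It was CONSTANS-LIKE 4 (Sobic.007G092000), at 41.5 ± 10.7 CPM in GR245DS roots and 18.8 ± 1.69 CPM in mock roots (edgeR adjusted p = 0.0435). It lost the call without any 1 library except GR245DS replicate 1 (0.119 to 0.206), without the third replicates (0.167) and with scaling by total counts (0.0752). CONSTANS-LIKE 13 (Sobic.001G372700), at 69.6 ± 6.59 CPM in GR245DS roots and 30.8 ± 7.47 CPM in mock roots, missed it (edgeR adjusted p = 0.0802, 0.00924 with the block, 0.0499 without the third replicates). It passed by DESeq2 (DESeq2 adjusted p = 0.00167) and met the authors' rule (DESeq2 log2 fold change 1.004, FDR 0.000107). With the block 4 of 67 NAC factors were higher and 1 lower, and without the third replicates 1 was higher. Without a block 1 was higher (1.49%, against 0.480% of all genes). It was NAC100 (Sobic.004G191700), at 151 ± 8.47 CPM in GR245DS roots and 86.8 ± 4.63 CPM in mock roots (edgeR adjusted p = 0.0144, but 0.0624 to 0.0771 without GR245DS replicate 2 or 3 or mock replicate 2 or 3).

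No member was called in 24 of the 37 lists. With the block, 15 of these 24 held called genes. Over all genes, 1.53% were higher and 0.520% lower with the block. Higher were 6 of 43 ABCG transporters, 4 of 82 nitrate and NRT1/PTR transporters and 2 of 53 phosphate starvation genes. Lower were 4 of 33 aquaporins, 3 of 110 peroxidases and 2 of 44 photosynthesis genes. Of 69 heat shock genes 5 were higher and 1 lower. Of 86 MYB factors 2 were higher and 1 lower, and of 91 AP2/ERF factors 1 was higher and 2 lower. The other 6 lists had 1 each. It was higher for strigolactone synthesis (11 genes), ethylene (25) and ribosomal proteins (202). It was lower for WRKY factors (78), calcium sensors (41) and histones (52). Whether any of these lists differs from all genes was not tested. Without the third replicates 4 of the 24 lists had 1 called gene each, an ABCG transporter higher and an ethylene gene, an aquaporin and a peroxidase lower. Of 14 TCP factors, the family of the branching regulator TB1, 0 passed, and TCP14 (Sobic.004G237300) averaged 13.6 ± 1.35 CPM in GR245DS roots and 8.87 ± 3.40 CPM in mock roots. PCF6 (Sobic.002G035500), another of that family, averaged 2.52 ± 0.48 CPM in GR245DS roots and 3.61 ± 0.77 CPM in mock roots. Among 46 GRAS factors, the family of the synthesis regulators NSP1 and NSP2, 0 passed (median -0.05). SCARECROW-LIKE 9 (Sobic.002G301800) averaged 76.8 ± 7.86 CPM in GR245DS roots and 62.5 ± 12.4 CPM in mock roots, and SCARECROW-LIKE 7 (Sobic.001G109100) averaged 2.32 ± 1.15 CPM in GR245DS roots and 4.75 ± 1.26 CPM in mock roots. The groups overlapped for PCF6 and both SCARECROW-LIKE genes and not for TCP14. Gibberellin (15 genes) and abscisic acid (19 genes) lists had 0 called. GA2ox6 (Sobic.006G150800), which inactivates gibberellin, averaged 5.94 ± 1.25 CPM in GR245DS roots and 3.66 ± 0.21 CPM in mock roots, and GA2ox3 (Sobic.003G300800) averaged 8.16 ± 2.87 CPM in GR245DS roots and 11.3 ± 2.63 CPM in mock roots. NCED1 (Sobic.004G268500), for the rate-limiting step to abscisic acid, averaged 1.10 ± 0.28 CPM in GR245DS roots and 0.527 ± 0.37 CPM in mock roots, and the receptor PYL4 (Sobic.009G170700) averaged 3.43 ± 0.72 CPM in GR245DS roots and 5.41 ± 0.31 CPM in mock roots. Groups did not overlap for GA2ox6 and PYL4, and the lowest edgeR adjusted p among these 8 genes was 0.704, for GA2ox6.

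Phosphate starvation genes, whose induction goes with strigolactone synthesis in many plants, had 0 of 53 called (median 0.04), against 2 higher with the block. PHO1-2 (Sobic.004G339800), for a phosphate exporter, had 485, 560 and 504 CPM in GR245DS libraries, against 283, 297 and 203 CPM in mock libraries. The groups did not overlap, and the log2 fold change of 0.98 ± 0.30 SE missed the threshold (edgeR adjusted p = 0.435, 0.0233 with the block). SQD1 (Sobic.009G123300), which makes sulfolipid, averaged 17.2 ± 0.81 CPM in GR245DS roots and 12.6 ± 1.54 CPM in mock roots and missed it too (edgeR adjusted p = 0.748).

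The only gene called lower in the main edgeR fit (12 libraries, TMM factors, filter on low counts, no block) was pectinesterase 2.1 (Sobic.003G321200). Its enzyme removes methyl esters from cell wall pectin. The gene had 3.80, 4.21 and 5.38 CPM in GR245DS libraries, against 15.04, 12.6 and 16.9 CPM in mock libraries, a log2 fold change of -1.73 ± 0.32 SE (edgeR adjusted p = 0.0435). The call ended without any 1 of the 6 libraries (edgeR adjusted p 0.100 to 0.226) and without the third replicates (0.142). The naming rule added 4 described genes by order of p, taken only from those at 5 CPM or more without overlap between groups. All 4 missed the threshold in the main edgeR fit and passed it by DESeq2 (DESeq2 adjusted p 0.000122 to 0.00102). They also met the authors' rule (DESeq2 log2 fold change -1.03 to -1.31, FDR 5.11e-09 to 3.62e-05). The lipase OBL1 gene (Sobic.009G048100) had 45.8, 38.1 and 63.9 CPM in GR245DS libraries, against 110, 166 and 176 CPM in mock libraries (edgeR adjusted p = 0.0555, 0.00688 with the block, 0.0488 with scaling by total counts). Peroxidase 1 (Sobic.003G151900) averaged 15.1 ± 2.90 CPM in GR245DS roots and 34.9 ± 4.08 CPM in mock roots (edgeR adjusted p = 0.0565, 0.0233 with the block, 0.043 with scaling by total counts, 0.0438 without the filter). Oligopeptide transporter 7 (Sobic.010G017100) averaged 7.34 ± 0.39 CPM in GR245DS roots and 15.7 ± 1.28 CPM in mock roots (edgeR adjusted p = 0.0704, 0.0240 with the block, 0.0267 without the third replicates). The aquaporin PIP2-6 (Sobic.002G125300), a water channel, averaged 16.01 ± 5.30 CPM in GR245DS roots and 46.6 ± 4.81 CPM in mock roots (edgeR adjusted p = 0.0790, 0.0352 with the block). Medians were below that of all genes in 19 of the 37 lists. The lowest were sorgoleone synthesis (-1.10, 15 genes), peroxidases (-0.50, 110 genes), expansins (-0.45, 63 genes), aquaporins (-0.36, 33 genes), seed storage proteins (-0.32, 4 genes) and flavonoid enzymes (-0.31, 31 genes), with 0 members called in each. Between the third replicates and the others, the median differences of these lists were -0.76, -0.60, -0.80, -0.24, 0.05 and -0.35 in log2(CPM + 1). The sum of the sorgoleone genes, at 471, 423 and 514 CPM in GR245DS libraries against 501, 644 and 558 CPM in mock libraries, was not lowest in the third replicate of either group. The part of the third replicates in these medians was not tested.

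The 6 h response was set beside the same contrast at 3 h, which has its own mock libraries. At 3 h 247 genes were higher (0.995%) and 3 lower (0.0121%), and 112 genes were higher at both times, which is 94.1% of the 6 h genes and 45.3% of the 3 h genes. All 119 genes had a positive log2 fold change at 3 h, and 84 of them had a larger one at 3 h than at 6 h. Their median was 2.06 at 6 h and 2.35 at 3 h. The 3 h count in either direction was 250, 777 with the block, and 122 to 304 with a single library left out, and it moved by over 1.5 times without each library (122 to 164) except GR245DS replicate 3. The test of the difference between times called 0 genes by edgeR (289 at an unadjusted p under 0.05) and 0 by DESeq2 (458), so no gene is shown to respond differently at the 2 times. Of the 135 genes called higher at 3 h alone, 133 had a positive log2 fold change at 6 h.

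GSTU17 had 1078, 2369 and 441 CPM in GR245DS libraries at 3 h, against 5.69, 7.10 and 5.73 CPM in mock libraries of that time. OPR1 had 40.6, 80.9 and 19.8 CPM in GR245DS libraries at 3 h, against 0.139, 0.522 and 0.133 CPM in mock libraries of that time. For both genes GR245DS replicate 2 was the highest and replicate 3 the lowest at 3 h. OPR1 differed by -2.23 ± 0.98 SE in log2 fold change between 6 h and 3 h, which did not pass (edgeR adjusted p = 1). For the repressor genes the values of the times lay close together. The first D53 gene had 160, 131 and 154 CPM in GR245DS libraries at 3 h, against 50.9, 49.95 and 20.3 CPM in mock libraries of that time. Its log2 fold change was 2.08 at 6 h and 1.88 at 3 h, a difference of 0.20 ± 0.43 SE. SMAX1 had 118, 95.9 and 88.2 CPM in GR245DS libraries at 3 h, against 41.6, 27.02 and 21.97 CPM in mock libraries of that time, with a log2 fold change of 1.65 at 6 h and 1.74 at 3 h.

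Of the 119 genes, 7 were not called at 3 h, and they were examined after their values were seen. The largest gap was that of a riboflavin kinase gene (Sobic.003G301500), for an enzyme that makes the cofactor FMN from riboflavin. It had 21.0, 20.7 and 18.3 CPM in GR245DS libraries at 6 h, against 10.4, 12.3 and 10.7 CPM in mock libraries of that time. At 3 h it had 18.9, 16.1 and 16.1 CPM in GR245DS libraries, against 13.9, 16.1 and 14.9 CPM in mock libraries. The groups did not overlap at 6 h and did at 3 h, with a log2 fold change of 0.84 at 6 h and 0.19 at 3 h (difference 0.66 ± 0.20 SE, edgeR adjusted p = 1). The other described ones were LOGL10, a vacuolar-processing enzyme, cysteine proteinase 2 and an iron-sulfur cluster assembly protein.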

How the data were processed

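Per the labels' protocols, RNA of roots was isolated with the RNAprep Pure Plant Kit and Hieff NGS mRNA libraries were sequenced. Strandedness and genome build are not stated, so reads of overlapping or antisense genes cannot be told apart, and no coordinates or sequences are given. The submitters' processing notes name fastp, HISAT2, featureCounts and DESeq2 1.22.1 without saying what each did. The deposited table holds raw counts, the authors' FPKM, and the authors' log2 fold change and FDR (adjusted p-value) per comparison. All per-library columns matched a sample by name (0 unmatched). Of the 35842 genes, 34129 carry a Sobic identifier and 1713 were added by the authors, and 0 identifiers matched the reference gene table, so names are taken from the table's own descriptions.

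Counts of the 12 libraries were fitted with 1 mean per group in edgeR 4.0.16 (glmQLFit, robust, with TMM factors and filterByExpr, run in R 4.3.3). P-values were adjusted by Benjamini-Hochberg over 24814 genes, with a threshold of 0.05. CPM come from edgeR, folds are ratios of group means, and SE is the log2 fold change over the root of F. The common dispersion was 0.136, and 0.0498 with the replicate block. The steps were run on simulated data with a smaller dispersion than 0.136 and no replicate effect. That run does not show how calls behave under the spread of these libraries. No library pair agreed within sampling noise. TMM factors were 0.956 to 0.988 in GR245DS and 1.003 to 1.057 in mock libraries at 6 h.

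Libraries of the same replicate number had correlated deviations from their group means, at 0.379 to 0.681 between the 6 h groups and 0.139 to 0.76 over all 18 pairs, against -0.59 to 0.296 for different numbers. The numbers thus pair the samples in the data, though the labels do not say what they mark. Members and lists were chosen with earlier results of these data known, and words of some lists were corrected for false matches after the descriptions were read. The 37 lists are matched by words in the descriptions. Named genes are the 8 largest called changes per direction with a description, at least 5 CPM and no overlap (filled to 5 by p), the called strigolactone signalling genes, the 3 best strigolactone synthesis genes, the best 2 of each other list that bears on the treatment and the best called of any other list. For the difference between times the rule named none. Alternatives were RLE factors, total counts, DESeq2 1.42.0, no filter, 30 reads in 3 libraries, only the 6 libraries, the block, each library left out, leaving out the third replicates, a 2-fold minimum and an adjusted p of 0.01.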

Additional observations from a re-analysis of the deposited data

How the results depend on the processing

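Against 120 genes called at 6 h, DESeq2 gave 328, of which 278 were higher and the rest lower. The replicate block gave 509, the replicate block with only the 6 libraries 428 and an adjusted p of 0.01 gave 51. Leaving out 1 library gave 52 to 90, with the fewest without mock replicate 2. For 3 h (250) these were 589 with DESeq2, 777 with the replicate block, 100 with only the 6 libraries, 117 at an adjusted p of 0.01 and 122 to 304 with 1 library left out. The other settings stayed within 1.5 times (6 h: 82 to 133). The difference between times gave 0 throughout. None of the 119 raised genes turned negative in any of 15 settings, and DESeq2 and the block called all 119. Scaling by total counts moved the median of all genes to -0.11, and 99 of the 119 stayed called. Of 29 named genes called, 15 kept the call without each single library and 14 lost it without at least 1, most often mock replicate 2 (14) or 3 (13). With only the 6 libraries, aldo-keto reductase 3, IAA25, CONSTANS-LIKE 4 and NAC100 lost their calls (edgeR adjusted p 0.0677 to 0.174), and aldo-keto reductase 3 and OPR1 did when the block was added to that fit (0.0951 and 0.0697). No named gene reversed. The cause of these shifts was not tested. For the strigolactone synthesis genes under 2 CPM, the parts of depth and of spread between libraries were not separated. Few mock reads limit the size of the salutaridine reductase change. A missed call does not show that values did not differ.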

Other observations

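Outside the lists, genes of sulfur assimilation and of the molybdenum cofactor were among the 119 raised at 6 h. They were chosen after their values were seen, so they get no count against a list. ATP-sulfurylase 3 (Sobic.001G094300), which activates sulfate, had 494, 745 and 737 CPM in GR245DS libraries, against 218, 238 and 226 CPM in mock libraries (2.90-fold; edgeR adjusted p = 0.0292). Sulfite reductase (Sobic.009G189400), which makes sulfide, had 201, 255 and 343 CPM in GR245DS libraries, against 97.5, 119 and 102 CPM in mock libraries (2.51-fold; edgeR adjusted p = 0.0229, 0.0614 without the third replicates). Serine acetyltransferase 4 (Sobic.001G470000), which makes the acceptor of that sulfide in cysteine synthesis, averaged 10.1 ± 0.57 CPM in GR245DS roots and 2.04 ± 0.63 CPM in mock roots. Cysteine is a building block of glutathione. The molybdenum cofactor sulfurase gene (Sobic.010G224000) averaged 136 ± 23.2 CPM in GR245DS roots and 49.0 ± 9.89 CPM in mock roots, and the catalytic subunit of molybdopterin synthase (Sobic.004G037600) averaged 20.4 ± 1.74 CPM in GR245DS roots and 7.47 ± 2.20 CPM in mock roots. A gene described as indole-3-acetaldehyde oxidase (Sobic.001G062300), of the aldehyde oxidases that carry this cofactor, had 868, 1251 and 1125 CPM in GR245DS libraries, against 175, 120 and 190 CPM in mock libraries (6.68-fold; edgeR adjusted p = 0.00119).

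Of the 119 raised genes, 21 had another raised gene within 3 identifiers in the numbering of the annotation, and no such share was computed for other genes. The runs include the UDP-glycosyltransferases Sobic.003G047500, Sobic.003G047600 and Sobic.003G047700, at 52.9, 8.06 and 62.1 CPM on average in GR245DS roots and 3.26, 0.588 and 8.38 CPM in mock roots. They also include 3 endo-glucanase genes (Sobic.009G129800, Sobic.009G129900 and Sobic.009G130000), for enzymes that cut mixed-linkage glucan of grass walls, at 257, 288 and 499.6 CPM on average in GR245DS roots and 83.9, 84.7 and 51.9 CPM in mock roots. How shared reads were counted is not known here.

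Most genes called lower at 6 h with the replicate block were not called without it. The 129 included 4 of 33 aquaporins and 3 of 110 peroxidases, against 0.520% of all genes. The aquaporin TIP2-2 gene (Sobic.010G146100), a water channel of the vacuole, had 27.9, 26.5 and 34.7 CPM in GR245DS libraries, against 47.3, 57.8 and 95.1 CPM in mock libraries (edgeR adjusted p = 0.00179 with the block, 0.251 without it, 0.0329 without the third replicates). Peroxidase 12 (Sobic.006G277500) had 46.0, 47.3 and 84.4 CPM in GR245DS libraries, against 221, 126 and 312 CPM in mock libraries (edgeR adjusted p = 0.00243 with the block, 0.462 without it). Sphinganine C4-monooxygenase 2 (Sobic.004G008800), for an enzyme that hydroxylates sphingolipid bases, had 4.13, 0.752 and 2.82 CPM in GR245DS libraries, against 28.1, 3.14 and 9.25 CPM in mock libraries. Its groups overlap, yet the GR245DS library was lower within each replicate number (edgeR adjusted p = 0.00435 with the block, 0.668 without it). These 3 genes were chosen after their values were seen.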
